A study of Mus musculus with 48 samples.

Results

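The chains of the collagens and laminins, the structural proteins of the extracellular matrix, were followed through fat cell differentiation with and without knockdown of PPARγ. The members were all probes whose array symbol names a collagen alpha chain (COL, a type number, A and a chain number) or a laminin alpha, beta or gamma chain (LAMA, LAMB or LAMC and 1 digit). They were 72 of the 24613 probes of the array and 48 of its 18991 gene symbols. The symbol LAMB1-1 fell outside this rule and was counted among the partner genes. The arrays measured 3T3-L1 cells, a mouse fibroblast-like line that turns into fat cells under hormones, with 3 biological replicates on each of 8 days.

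All cells were transfected with pooled siRNA at 50 nM, either non-targeting (control siRNA) or directed against PPARγ (PPARγ KD). All groups followed the same differentiation schedule after confluence, dexamethasone (0.25 µM) with IBMX (0.5 mM) over 48 h, followed by rosiglitazone (1 µM) with insulin (5 µg/ml) over another 48 h. Days are counted from rosiglitazone, and RNA was taken on day −2 and on days 0, 1, 2, 3, 4, 5 and 6, which gives 48 arrays. Whether the day −2 cells had already met IBMX and dexamethasone is not given in the sources used here. Rosiglitazone is a PPARγ ligand, and no set of samples was grown without it, so both siRNAs had met that drug from day 1 on.

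Collagens are made of helical trimers of alpha chains. Fibrillar types such as I, III and V build the cable-like fibrils of the stroma. Type IV forms the sheet-like network of basement membranes, to which laminins, trimers of an alpha, a beta and a gamma chain, bind cell receptors. A fat cell is wrapped in such a basement membrane, and its fibroblast precursor lives among fibrils. PPARγ is the nuclear receptor without which fat cells do not form.

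Values are log2 intensities after background correction and scaling of the arrays. A difference is PPARγ KD minus control siRNA unless a day is compared with day −2. The p-values come from limma and were Bonferroni adjusted across the 24613 probes of the array, a probe was called at an adjusted p of 0.05 or less, and a probe was above background on an array at a detection p under 0.01. Intensities of different probes are not comparable, so no chain is ranked against another.

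Of the 3 PPARG probes the brightest (6130632) lay between 10.00 and 12.22 on the 24 control siRNA arrays and between 7.58 and 9.81 on the 24 PPARγ KD arrays, without overlap. Over all days the PPARγ KD was lower for each of 7 adipocyte markers, with a median log2 difference of −3.05. Of the 6 preadipocyte or fibroblast markers, 3 were higher (DLK1, PDGFRB and THY1) and their median was 0.27. The adipocyte markers still rose in the PPARγ KD. There 5 of the 7 were higher on day 6 than on day −2 (median 1.82), where 2.49% of all probes were. Under control siRNA 6 were (median 4.69), where 4.11% of all probes were. None of the 5 endothelial, 4 leukocyte or 2 epithelial markers was above background on any array. Of the 4 skeletal muscle markers ACTA1 was above background on 34 arrays and MYOD1, MYOG and DES on none. The cartilage regulator SOX9 was above background on all 48. Between 33.4% and 35.4% of probes were above background on replicate 3 arrays, against 36.8% to 40.4% on those of replicates 1 and 2. In bulk RNA, fewer cells of a kind and less RNA per cell cannot be told apart.

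Of the 48 genes, 18 were above background on all 48 arrays, 22 on at least 24 arrays and 21 on none. Among the probes 26 of 72 reached 24 arrays and 40 reached none. The chains above background everywhere were COL1A1, COL1A2, COL3A1 and COL5A1 (fibrillar), COL4A1, COL4A2, COL4A5, COL18A1 and COL7A1 (basement membrane), COL6A1, COL6A2 and COL6A3 (beaded filament), COL8A1, COL16A1 and COL20A1, and the laminin chains LAMA4, LAMB2 and LAMC1. The cartilage collagens COL2A1, COL9A1 to COL9A3, COL10A1, COL11A1 and COL11A2 were not above background on any array. Neither were COL4A3, COL4A4 and COL4A6, nor the laminin chains LAMA1, LAMA3, LAMA5 and LAMC3. The 40 probes that never rose above background had log2 differences over all days of at most 0.20 in size.

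Over all days, 12 member probes of 10 genes were lower in the PPARγ KD, where 6.74% of all probes were lower, and 6 probes of 5 genes were higher, where 6.37% were. Among the 26 brighter member probes 9 were lower and 5 higher, where 15% and 15.3% of the 9217 probes equally often above background were. The median log2 difference was −0.04 over the 72 member probes and −0.03 over all probes. The matrix chains thus moved in both directions. The lower genes were the 3 type VI chains, COL4A1, COL4A2, COL8A1, COL15A1, COL20A1, COL27A1 and LAMB3, and the higher were COL3A1, COL7A1, COL16A1, LAMA2 and LAMB2.

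**Figure D1:**
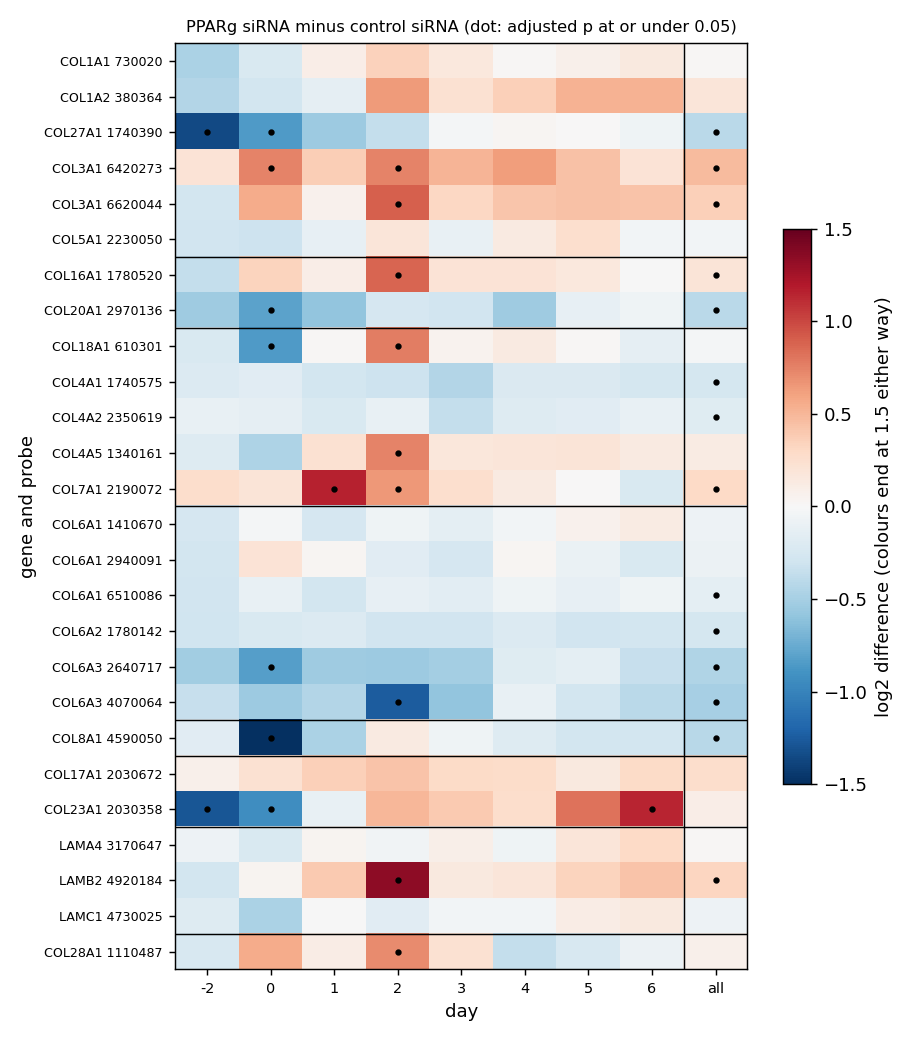
Log2 difference, PPARγ KD minus control siRNA, for the 26 member probes above background on at least 24 of 48 arrays, by day and over all days, with black lines between families of chains. Black dots mark an adjusted p of at most 0.05, and red cells gather on day 2.

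The fibrillar collagens fell early and came back. These are the chains of the stromal fibril, COL1A1 and COL1A2 of type I, COL3A1 of type III and COL5A1 of type V, which starts and limits fibrils. Under control siRNA 6 probes of 5 fibrillar genes were lower on day 2 than on day −2, where 6.98% of all probes were (all 6 above background on at least 24 arrays, with a median log2 difference of −1.41), and none was called on day 6.

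COL1A1 read 13.60, 13.57 and 14.26 in control replicates 1, 2 and 3 on day −2, then 11.71, 11.75 and 12.61 on day 0. It read 12.20, 12.03 and 12.98 on day 2 and had returned to 13.71, 13.58 and 14.18 by day 6. The day 0 values were all below those of day −2, by 1.79 on the log2 scale (log2 difference −1.79, SE 0.10, adjusted p = 3.19e-15 from limma), and the day 6 values lay in the range of day −2. The PPARγ KD cells also fell, from 13.10, 13.23 and 13.71 on day −2 to 11.59, 11.49 and 12.29 on day 0. The ranges of the siRNAs overlapped on both days, but COL1A1 was lower in the PPARγ KD in 3 of 3 pairs on each, by log2 differences of −0.47 and −0.23 that were not called (limma adjusted p = 1 for both). Over all days COL1A1 differed by 0.02 (SE 0.04, limma adjusted p = 1).

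COL1A2 read 12.29, 11.82 and 10.18 in the control replicates on day −2 and 10.55, 10.51 and 8.71 on day 2. Each replicate fell, by 1.51 on average (log2 difference −1.51, SE 0.12, adjusted p = 9.65e-11 from limma), although the groups overlap because replicate 3 was 1.88 lower than the mean of replicates 1 and 2 throughout. In the PPARγ KD, COL1A2 read 11.09, 11.28 and 9.33 on day 2, above its control partner in 3 of 3 pairs, a log2 difference of 0.64 (SE 0.12) that was not called (limma adjusted p = 0.0894). By day 6 it stood 1.07 above its day −2 level in the PPARγ KD (limma adjusted p = 1.59e-06), at 12.72, 12.81 and 10.64, and control COL1A2 was not called there. The PPARγ KD was lower in 3 of 3 pairs on day −2 (−0.44) and higher in 3 of 3 on day 6 (0.52). Neither difference was called, and the difference between the 2 rises was not tested.

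COL3A1 was the fibrillar chain that was higher in the PPARγ KD, by both of its probes. Probe 6420273 read 7.27, 7.25 and 7.34 under control siRNA on day 0 and 8.05, 7.99 and 8.04 in the PPARγ KD, and on day 2 it read 7.23, 6.91 and 7.63 against 7.98, 7.96 and 8.04. The siRNAs did not overlap on either day, and the log2 difference was 0.74 on both (SE 0.12, limma adjusted p = 0.00553 and 0.0057). The PPARγ KD was higher in 24 of 24 pairs, and over all days the difference was 0.48 (SE 0.04, limma adjusted p = 1.78e-09), called also without any 1 replicate. The calls of single days were lost without replicate 1 or 2, at 0.72 to 0.74 on day 0 and 0.58 to 0.73 on day 2, and that of day 2 also under quantile normalization (0.67).

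The brighter COL3A1 probe, 6620044, gave 0.36 over all days (SE 0.06, limma adjusted p = 0.00564), higher in 20 of 24 pairs, and lost its call when any 1 replicate was left out (0.24 to 0.44). On this probe replicate 3 lay 2.82 below replicates 1 and 2, while on probe 6420273 it lay 0.24 above them. The control values on day −2, for instance, were 13.41, 13.21 and 10.63 on the first probe and 8.60, 8.60 and 8.80 on the second. COL1A1 in replicate 3 lay 0.74 above the others. What moved these probes in replicate 3 was not tested, and the pairs of arrays keep it out of the siRNA differences.

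**Figure D2:**
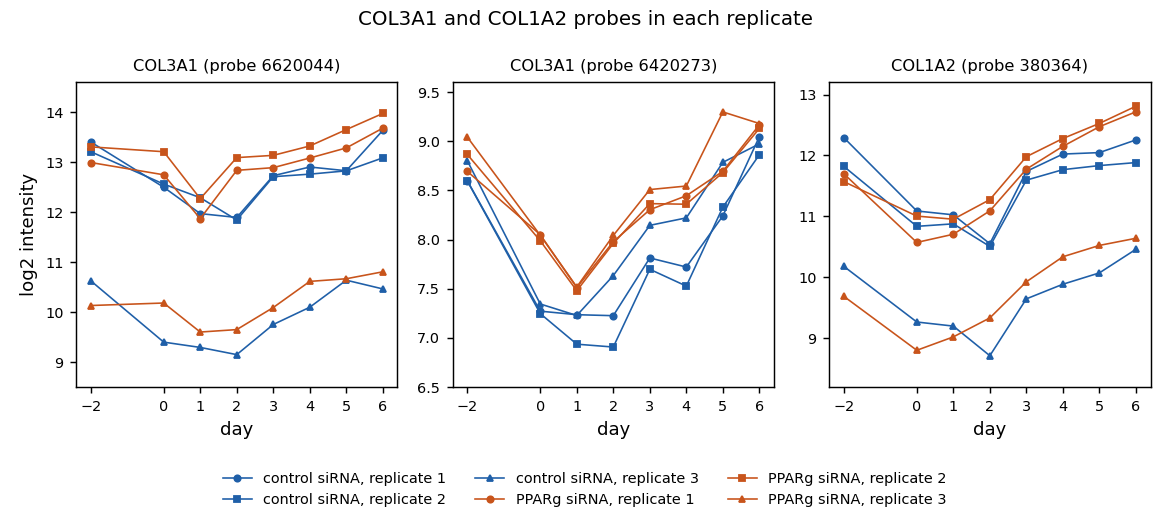
Log2 intensity by day in each replicate for the 2 COL3A1 probes and the COL1A2 probe. Replicate 3 (triangles) runs 2.82 below the others on COL3A1 probe 6620044 and 1.88 below on COL1A2, but 0.24 above on COL3A1 probe 6420273, and the dip after day −2 is seen on every one.

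COL5A1 dipped less, by 0.73 on control day 1 (log2 difference −0.73, SE 0.09, limma adjusted p = 1.06e-05) and by 0.55 in the PPARγ KD (limma adjusted p = 0.00476). COL27A1, a fibrillar chain best known from cartilage, also fell under control siRNA, by 1.02 on day 1 (log2 difference −1.02, SE 0.15, limma adjusted p = 0.000603). It differed between the siRNAs before that fall. On day −2 it read 7.57, 7.62 and 7.99 under control siRNA and 6.45, 6.43 and 6.26 in the PPARγ KD, of which 2 were above background. The groups did not overlap, at a log2 difference of −1.35 (SE 0.15, limma adjusted p = 7.78e-07), called also without any 1 replicate. By day 6 the siRNAs overlapped, at −0.06. The remaining fibrillar genes COL5A2 and COL5A3 were above background on 4 arrays each, and neither was called.

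**Figure D3:**
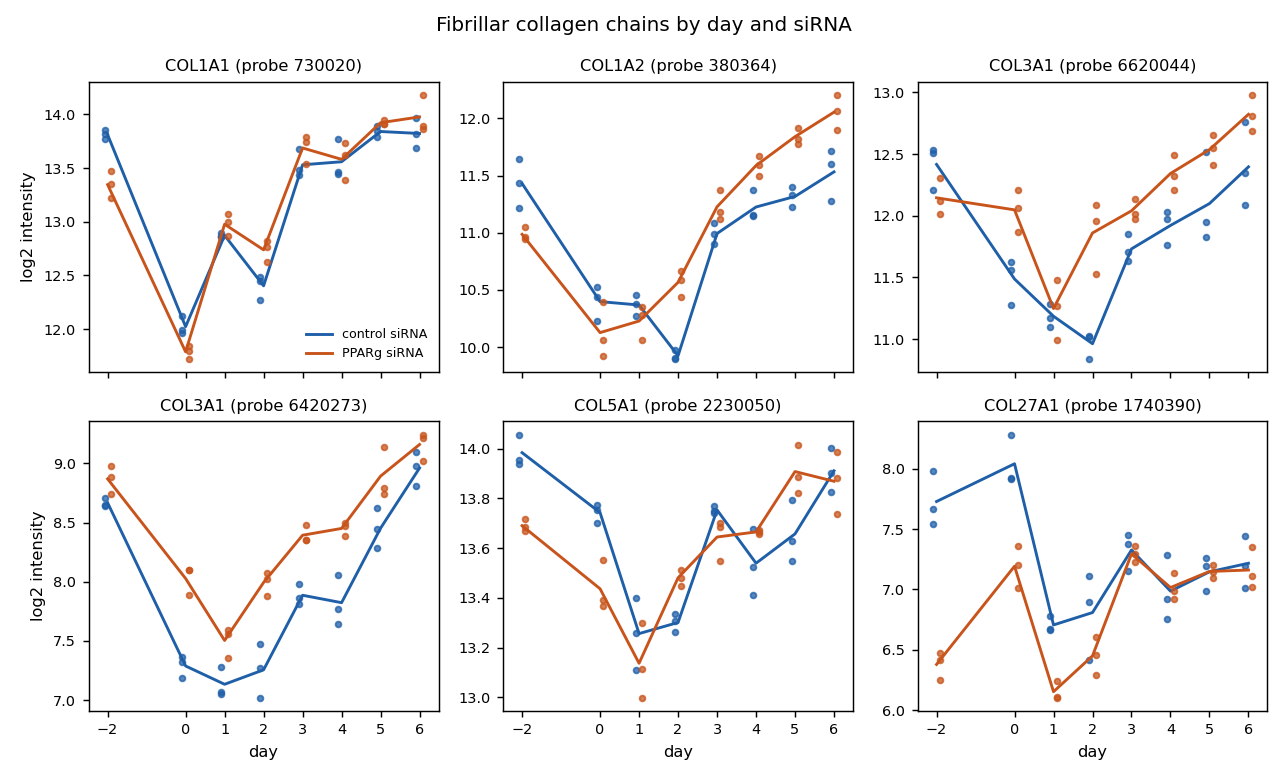
Log2 intensity by day for the fibrillar chains, with control siRNA in blue and PPARγ KD in orange, points for the 3 replicates after removing each replicate's mean offset and lines for their mean. COL1A1 reached its control low on day 0 and COL1A2 on day 2, and probe 6420273 of COL3A1 stayed higher in the PPARγ KD.

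The upstream sequences of COL1A2 and COL3A1 are shown because their transcripts fell together after day −2, and because they differ in content. Capitals mark the CCAAT box (CCAAT on either strand) and the GC box (GGGCGG on either strand), both general promoter motifs. The 250 bases before each start come from RefSeq, build GRCm38.p6, plus strand, chr6:4505368-4505617 for COL1A2 and chr1:45311288-45311537 for COL3A1.
COL1A2: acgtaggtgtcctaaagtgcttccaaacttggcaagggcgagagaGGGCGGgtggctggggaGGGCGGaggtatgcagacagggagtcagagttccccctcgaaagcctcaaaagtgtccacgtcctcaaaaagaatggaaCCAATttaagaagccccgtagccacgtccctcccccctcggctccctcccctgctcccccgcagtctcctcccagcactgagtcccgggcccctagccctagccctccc
COL3A1: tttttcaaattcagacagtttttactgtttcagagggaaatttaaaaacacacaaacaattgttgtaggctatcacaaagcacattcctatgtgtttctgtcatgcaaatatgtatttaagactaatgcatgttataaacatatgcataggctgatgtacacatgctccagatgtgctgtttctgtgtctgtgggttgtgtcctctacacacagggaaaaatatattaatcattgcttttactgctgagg
COL1A2 carries both motifs, and these letters are not in the COL3A1 window.

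COL4A1 and COL4A2, which make the main basement-membrane trimer of type IV, rose at once with either siRNA. COL4A1 read 12.90, 12.89 and 12.83 in the control replicates on day −2 and 14.21, 14.13 and 14.12 on day 0. In the PPARγ KD it read 12.62, 12.78 and 12.60 and then 13.98, 14.06 and 13.90. The days did not overlap under either siRNA, and the rise was 1.28 (SE 0.10, limma adjusted p = 1.32e-10) with control siRNA and 1.31 (SE 0.10, limma adjusted p = 5.94e-11) in the PPARγ KD.

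COL4A2 moved likewise, from 14.08, 14.17 and 14.02 to 15.12, 15.19 and 15.24 in control cells and from 14.02, 13.86 and 14.05 to 14.97, 14.89 and 15.28 in the PPARγ KD, again without overlap between days. Its rise was 1.10 (limma adjusted p = 5.11e-12) and 1.07 (limma adjusted p = 1.18e-11), and it stayed above day −2 on every later day under both siRNAs. On day 6 COL4A1 was still 0.75 and COL4A2 0.87 above day −2 in control cells, and 0.69 and 0.86 in the PPARγ KD.

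Across all days both chains were lower in the PPARγ KD, COL4A1 by 0.26 (log2 difference −0.26, SE 0.04, limma adjusted p = 0.000269, lower in 22 of 24 pairs) and COL4A2 by 0.18 (−0.18, SE 0.03, limma adjusted p = 0.00427, 21 of 24 pairs). By replicate these differences were −0.38, −0.09 and −0.32 for COL4A1 (SD 0.15) and −0.17, −0.27 and −0.09 for COL4A2 (SD 0.09). The SEs, p-values and pair counts take the days of 1 replicate as independent, so they do not measure this spread between replicates. Neither chain was called on any single day. The COL4A1 call was lost without replicate 1 (−0.21) or replicate 3 (−0.23). That of COL4A2 was lost without replicate 1 (−0.18) or 2 (−0.13), and with quantile normalization or without background correction (−0.14 each).

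COL4A1 and COL4A2 lie head to head on opposite strands, with RefSeq starts 21 bases apart and first transcribed bases that overlap. The 78 bases shared by both promoter windows, which run from 250 bases before each start to 50 after it, are shown because the transcripts rose together. They lie at chr8:11312777-11312854 (GRCm38.p6, plus strand), with the GC box in capitals. Each of these bases is among the first 50 after the start of 1 gene or the other, and none is upstream of both.
COL4A1 and COL4A2: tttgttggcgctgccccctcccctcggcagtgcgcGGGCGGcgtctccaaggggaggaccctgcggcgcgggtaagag
COL4A5 and COL4A6 also point away from each other on opposite strands, but with a gap, their starts being 1343 bases apart. COL4A5 was above background on all 48 arrays and COL4A6 on none. RefSeq promoters were matched for 35 of the 48 member genes, in 39 windows of 300 bases. A GC box was in 56.4% of these and in 35.7% of all 32851 windows, a CCAAT box in 30.8% and 37.4%. The nuclear receptor half-site AGGTCA was in 15.4% and 16.3%. An exact direct repeat of it with 1 base between, the consensus form of the PPARγ element, was in 0 member windows and in 0.0396% of all. So rare a string could hardly be met in 39 windows, so its absence cannot show whether members have PPARγ sites. The paper scanned for the motif with mismatches allowed, around its binding sites.

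COL4A5, a chain of another type IV trimer, fell where COL4A1 and COL4A2 rose, from 11.30, 11.12 and 11.49 on control day −2 to 9.94, 9.82 and 10.03 on day 0 (log2 difference −1.37, SE 0.09, limma adjusted p = 6.11e-14). It fell in the PPARγ KD too (−1.64, limma adjusted p = 1.7e-16). On day 2 the siRNAs stood apart, at 10.21, 10.19 and 10.61 with control siRNA and 11.03, 11.03 and 11.17 in the PPARγ KD, without overlap and with a log2 difference of 0.74 (SE 0.09, limma adjusted p = 4.78e-06). That call was lost without replicate 1 (0.70) or 2 (0.69).

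COL18A1, whose C-terminal fragment is endostatin, differed in opposite directions on days 0 and 2. On day 0 it read 12.64, 12.49 and 12.55 with control siRNA and 11.36, 11.82 and 11.96 in the PPARγ KD (log2 difference −0.85, SE 0.11, limma adjusted p = 5.8e-05). On day 2 it read 10.73, 10.69 and 10.72 against 11.56, 11.46 and 11.44 (0.77, SE 0.11, limma adjusted p = 0.000475). The siRNAs did not overlap on either day, and over all days the difference was −0.03. Control cells passed from 1.31 above day −2 to a low on day 2, and the PPARγ KD curve was flatter. Without replicate 1 both calls were lost (−0.63 and 0.74), and that of day 2 also without replicate 2 (0.77).

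COL15A1, a heparan and chondroitin sulphate bearing basement-membrane collagen, was near background and is described because of its difference, after its values were seen. It was above background on 7 arrays, all with control siRNA from day 3 on. On day 4 it read 6.71, 6.56 and 6.68 with control siRNA, 2 of them above background, and 5.09, 5.36 and 5.62 in the PPARγ KD, with no overlap. As none of the PPARγ KD values was above background, the fold is a bound of at least 1.09-fold. The fitted log2 difference was −1.29 (SE 0.13, limma adjusted p = 6e-08). Over all days the difference was −0.69 (SE 0.04, limma adjusted p = 3.02e-13).

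COL7A1, the anchoring fibril chain, was called higher in the PPARγ KD on day 1, with 8.44, 8.66 and 7.95 against 7.23, 7.17 and 7.20 and no overlap (log2 difference 1.15, SE 0.12, limma adjusted p = 1.12e-07). By day 6 the difference was −0.23 and the siRNAs overlapped. The day 2 difference of 0.65 had a limma adjusted p of 0.0488 and lost its call without any 1 replicate, with quantile normalization, without background correction and at an offset of 50.

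**Figure D4:**
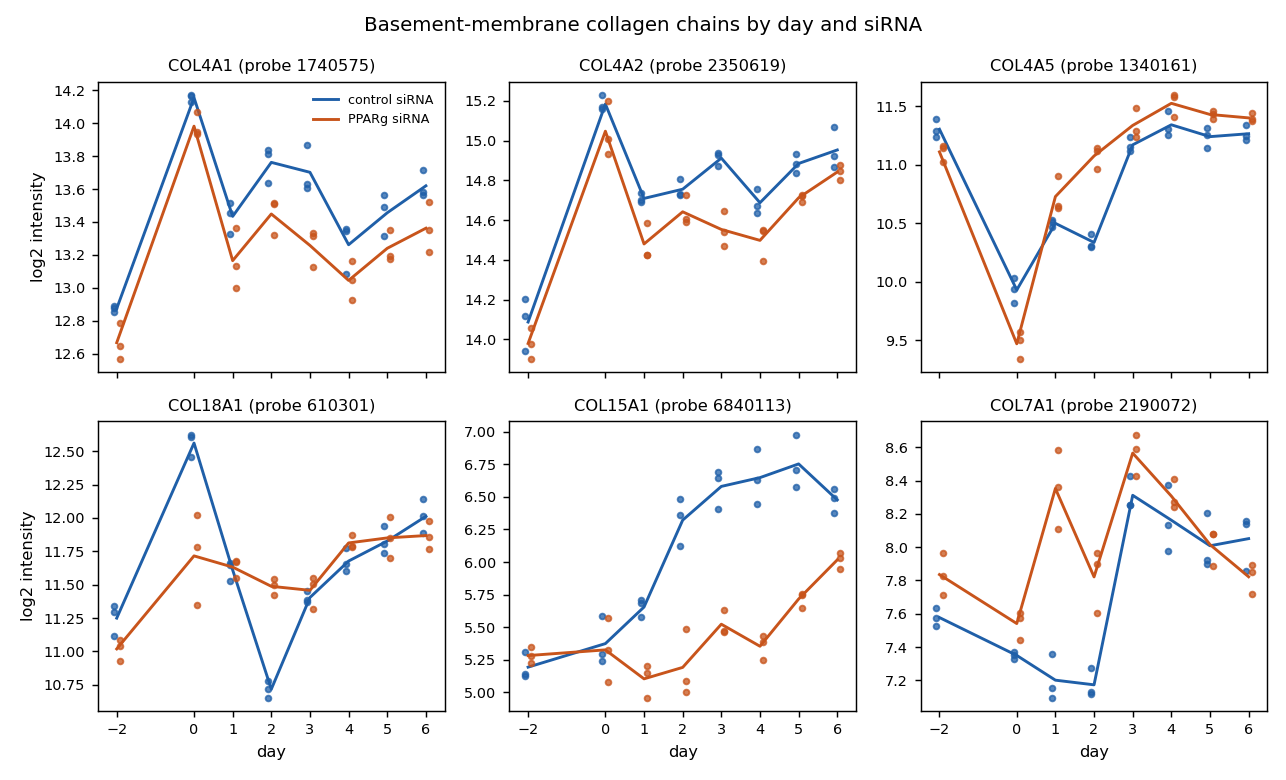
Log2 intensity by day for basement-membrane collagen chains, drawn as for the fibrillar chains, with control siRNA in blue and PPARγ KD in orange. COL4A1 and COL4A2 rise by 1.28 and 1.10 on control day 0, and COL18A1 separates one way on day 0 (−0.85) and the other on day 2 (0.77).

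The type VI chains, which form beaded filaments around cells, were lower in the PPARγ KD. Of the 7 probes 5 were called lower over all days, at least 1 for each gene, where 6.74% of all probes and 15% of the brighter ones were, with a median log2 difference of −0.26 over the 7. COL6A3 was lower by all 3 of its probes (−0.45, −0.50 and −0.36). Its brightest probe read 13.88, 13.84 and 13.70 with control siRNA on day 0 and 13.00, 13.18 and 12.77 in the PPARγ KD, without overlap (log2 difference −0.83, SE 0.10, limma adjusted p = 6.6e-06). Over all days it was lower in 22 of 24 pairs (limma adjusted p = 4.13e-11), a call kept without any 1 replicate, while that of day 0 was lost without replicate 1 (−0.80).

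COL6A2 was lower by 0.26 (−0.26, SE 0.04, limma adjusted p = 0.000418), a call lost without replicate 1 (−0.20) or 3 (−0.24). COL6A1 was lower by 0.15 on its brightest probe (−0.15, SE 0.02, limma adjusted p = 0.0084), lost without any 1 replicate (−0.18 to −0.13) and with other normalization, background or offset. Its other probes gave −0.08 and −0.09 and were not called. The COL6A1 probe 2940091 fell by 1.52 on control day 1, a fall that the other COL6A1 probes did not pass the test for.

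COL8A1, a short-chain network collagen of vessel walls and the cornea, differed between the siRNAs on day 0. It read 10.58, 10.47 and 9.84 with control siRNA and 8.01, 8.38 and 8.28 in the PPARγ KD, with no overlap. That is a log2 difference of −2.07 (SE 0.12, limma adjusted p = 1.1e-14), a 4.21-fold lower intensity, and was called also without any 1 replicate. Under control siRNA the fall came later, to 8.51, 8.60 and 8.24 on day 2 (−1.49 from day −2, SE 0.12, limma adjusted p = 3.85e-10), when the siRNAs overlapped. By day 6 they read 10.55, 10.36 and 9.83 against 10.24, 10.15 and 9.52.

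COL16A1 and COL20A1 decorate fibrils. COL16A1 read 13.62, 13.54 and 13.34 on control day −2 and 11.93, 11.87 and 11.71 on day 2 (log2 difference −1.66, SE 0.08, limma adjusted p = 5.28e-17). In the PPARγ KD it read 12.84, 12.86 and 12.43 on day 2, with no overlap, 0.87 above control (SE 0.08, limma adjusted p = 3.06e-08), a call kept without any 1 replicate. COL20A1 rose under control siRNA from 8.10, 8.01 and 8.13 on day −2 to 8.91, 8.81 and 8.98 on day 0 (log2 difference 0.82, SE 0.11, limma adjusted p = 0.000303). It was lower in the PPARγ KD in 22 of 24 pairs, by 0.40 over all days (−0.40, SE 0.04, limma adjusted p = 1.51e-07).

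Of the transmembrane collagens, COL23A1 changed sign. It started at 7.95, 7.88 and 8.09 with control siRNA against 6.25, 6.63 and 7.20 in the PPARγ KD on day −2, and ended at 6.86, 6.97 and 6.65 against 7.80, 8.13 and 7.97 on day 6. The siRNAs did not overlap on either day. The log2 difference was −1.28 (SE 0.16, limma adjusted p = 3.58e-05) and then 1.14 (SE 0.16, limma adjusted p = 0.000545). The first call was lost without replicate 2 (−1.30) and the second without replicate 2 (1.13) or 3 (1.05). On control day 1 the probe was not above background on any array, so its fall from day −2 is at least 2.75-fold.

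COL17A1, the hemidesmosome collagen of epithelia, also fell, from 3 of 3 control arrays above background on day −2 to none on day 0, by at least 1.76-fold. Its second probe was never above background. COL28A1, a von Willebrand factor A domain collagen, fell by at least 1.9-fold on control day 0 and was 1.13 above day −2 on day 6 (SE 0.10, limma adjusted p = 4.83e-09), at 8.41, 8.59 and 8.61 against 7.44, 7.41 and 7.38. In the PPARγ KD it was 1.28 above day −2 on day 6 (limma adjusted p = 1.22e-10).

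Among laminins, LAMB2, LAMC1 and LAMA4, a beta, a gamma and an alpha chain found in the basement membranes of mesenchymal tissues, were above background on all arrays. LAMB2 read 11.25, 11.52 and 11.26 on control day −2 and 9.70, 9.45 and 9.85 on day 2, without overlap (log2 difference −1.68, SE 0.13, limma adjusted p = 4.17e-11). The PPARγ KD read 10.97, 10.78 and 11.29 on day 2, above every control value, by 1.34 (SE 0.13, adjusted p = 2.81e-08 from limma), a 2.54-fold difference that was called without any 1 replicate. LAMB2 changed over time in control cells (F-test over 7 contrasts, limma adjusted p = 4.46e-11), and the same test in the PPARγ KD gave a limma adjusted p of 1. Over all days LAMB2 was 0.32 higher in the PPARγ KD, lost without replicate 1 (0.34) or 3 (0.23).

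LAMC1 and LAMA4 were not called between siRNAs, with −0.08 (SE 0.04) and 0.02 (SE 0.03) over all days. LAMB3, a beta chain known from the laminin under epithelia, was above background on 14 arrays and is described after its values were seen. Under control siRNA it read 5.91, 6.03 and 5.96 on day −2, none above background, and 7.97, 7.82 and 7.59 on day 6, all above background, a rise of at least 2.62-fold. In the PPARγ KD it read 6.15, 5.61 and 6.03 on day 6, none above background. Control was thus at least 2.47-fold higher, with a fitted log2 difference of −1.86 (SE 0.15, adjusted p = 2.88e-10 from limma), called also without any 1 replicate. The epithelial markers CDH1 and KRT14 were not above background on any array.

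LAMA2, the alpha chain of muscle and nerve laminin, was above background on 6 arrays, all in the PPARγ KD on days 2, 5 and 6. On day 2 it read 6.57, 6.48 and 6.72 there, 2 above background, against 5.27, 5.48 and 5.79 with control siRNA (fitted log2 difference 1.08, SE 0.16, limma adjusted p = 0.00115), too near background for a fold. The call was lost without any 1 replicate (0.97 to 1.15). It too was named after its values were seen.

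**Figure D5:**
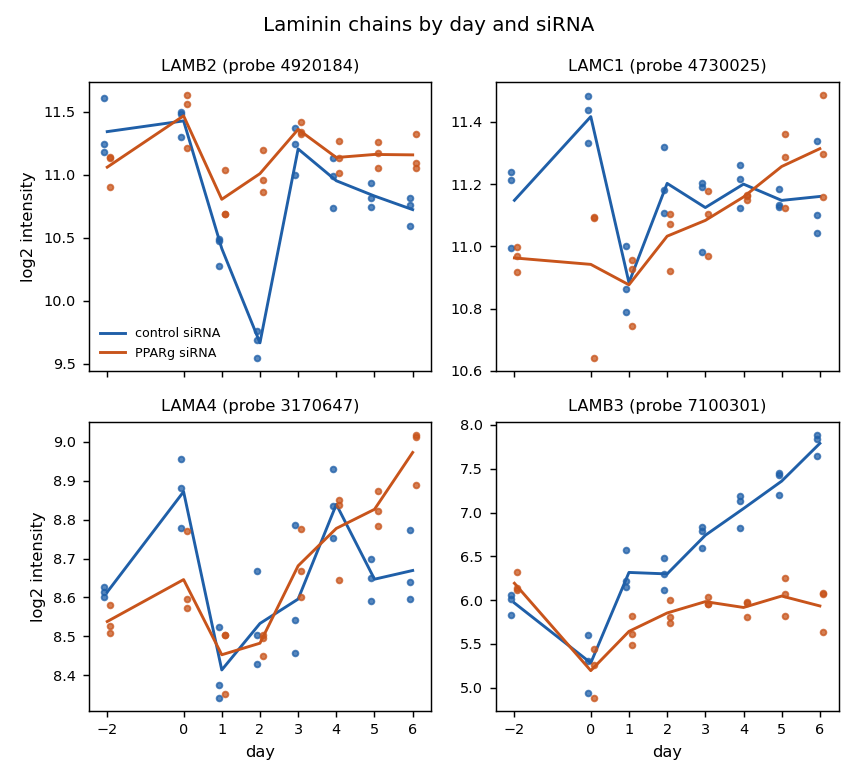
Log2 intensity by day for 4 laminin chains, drawn as for the collagens, with control siRNA in blue and PPARγ KD in orange. LAMB2 dips further on control day 2 than in the PPARγ KD (difference 1.34), and LAMB3 separates late, to a difference of −1.86 on day 6.

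By day, the calls gathered early. On day −2, 2 members were lower (all probes: 0.674% lower, 0.187% higher) and none higher. On day 0, 6 were lower and 1 higher, where 1.37% and 1.67% of all probes were. The lower members were COL6A3, COL8A1, COL18A1, COL20A1, COL23A1 and COL27A1. On day 1 COL7A1 alone was called (1.49% lower, 1.42% higher). On day 2, 3 probes were lower and 9 probes of 8 genes higher, where 4.18% and 4.74% of all probes were. The median over the 26 brighter members was 0.16 then, against 0.03 over all equally bright probes. On day 3 only COL15A1 was called (2.29% lower, 0.475% higher), and on days 4 and 5 COL15A1 and LAMB3 (2.13% lower and 0.272% higher, then 2.68% and 0.565%). On day 6 LAMB3 was lower and COL23A1 higher (3.09% and 0.796%).

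These daily counts depended on single replicates. The 6 lower calls of day 0 became 1 to 4 without 1 replicate, and 3 when only the pair of replicate 1 arrays of day 0 was left out. The 9 higher calls of day 2 became 2 to 6.

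The difference between days was tested itself. The effect of days 4 to 6 minus that of days 0 to 2 was called lower for LAMB3 (−1.03), COL7A1 (−0.69) and COL28A1 (−0.68) and higher for COL23A1 (0.92), where 2.82% and 0.813% of all probes were. A contrast chosen after seeing the data, day 2 minus the mean of days 4 to 6, was called higher for 6 members and lower for none, where 2.55% and 0.979% of all probes were. These were COL4A5 (0.57), COL16A1 (0.75), COL18A1 (0.77), COL28A1 (0.94), LAMB2 (1.03) and LAMB3 (0.99). COL3A1 was not among them. Without 1 replicate this count was 0 to 3, being 0 without replicate 1.

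Over time, 24 member probes changed with control siRNA and 23 in the PPARγ KD by the F-test, where 23.5% and 16.5% of all probes did. On control day 0, 9 members were lower and 4 higher than on day −2 (5.04% and 4.01% of all probes). On control day 2, 13 were lower and 3 higher (6.98% and 6.93%), with a median of −0.66 over the 26 brighter members and −0.02 over equally bright probes. On control day 6, 1 was lower and 6 higher (2.14% and 4.11%). In the PPARγ KD the counts were 9 and 4 on day 0 (4.02% and 3.36%), 5 and 2 on day 2 (1.17% and 1.6%), and 0 and 9 on day 6 (1.92% and 2.49%). The 9 included COL1A1 (0.63), COL1A2 (1.07), COL4A1 and COL4A2. Both courses share the day −2 samples of their own siRNA among all their contrasts.

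The fibroblast marker list was also low on control day 2. Its summed linear intensity lay between 60800 and 67700 there, below the 88800 to 90100 of the PPARγ KD, and between 87300 and 89400 on control day 6. On day 0, when COL1A1, COL4A5, COL17A1 and COL28A1 had fallen, it lay between 90000 and 95400 in control cells, which overlaps the day −2 range that starts at 90700, and between 96900 and 107000 in the PPARγ KD. The adipocyte list summed to between 76800 and 87200 on control day 2 and to between 12700 and 13200 in the PPARγ KD. These sums weigh the brightest probes most. By control mean log2, these were VIM (15.27) in the fibroblast list and LPL (14.77) in the adipocyte list. On day 2 the siRNA differences of VIM (0.17) and S100A4 (0.54) were not called. Those of DLK1 (0.92), PDGFRA (0.92), PDGFRB (1.03) and THY1 (0.97) were called higher in the PPARγ KD. The part of either list in the chain results was not tested.

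Genes that make, join or bind the chains were counted alongside. Of 23 measured genes of chain synthesis and processing, 5 were higher in the PPARγ KD over all days and 3 lower, where 6.37% and 6.74% of all probes were, and 15.3% and 15% of probes above background on at least 24 arrays, as 20 of the 23 genes were. The higher were ADAMTS2 (0.54), which trims fibrillar procollagen, BMP1 (0.29), which also cuts procollagen, the cross-linking oxidases LOX (0.32) and LOXL4 (0.33), and the prolyl hydroxylase subunit P4HA1 (0.20). The lower were the lysyl hydroxylase PLOD2 (−0.36), the prolyl hydroxylase LEPREL1 (−0.53) and the chaperone FKBP10 (−0.21). Of 4 fibril proteoglycans LUM, lumican, was lower (−0.56), and of 5 basement membrane partners AGRN, agrin, was higher (0.23).

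Of 10 measured receptors, 7 of them above background on at least 24 arrays, 5 were higher (6.37% of all probes and 15.3% of the brighter ones), among them the collagen receptors DDR1 (0.28), DDR2 (0.47) and ITGA11 (0.38), with ITGA3 (0.69) and ITGB1 (0.20). The laminin receptor chain ITGA6 was lower (−0.67, SE 0.05, limma adjusted p = 3.31e-11). The late minus early difference was lower for 4 receptors, where it was for 2.82% of all probes and 6.2% of the brighter ones. These were DDR1 (−0.51), ITGA3 (−1.12), ITGA6 (−1.21) and ITGA11 (−0.80).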

How the data were processed

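Expression was measured on 48 Illumina MouseRef-8 arrays. The authors deposited BeadStudio 3.3.7 output, a mean bead intensity per probe without normalization and a detection fraction equal to 1 minus the detection p-value. The rank-invariant normalization and batch removal of the study's methods are not in these values, and no BeadChip was given that could serve as a block. Array medians lay between 105.1 and 141.7. Precision is limited by how many arrays there were and by signal over background.

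Background was corrected with normexp using the detection p-values (offset 16) in limma 3.58.1, R 4.3.3. Arrays were scaled on probes between the quantiles 0.5 and 0.9 of mean signal whose rank moved by under 0.05 (factors 0.73 to 1.58). The linear model for log2 values (lmFit, eBayes) held 1 mean for each group of siRNA and day, and replicate number as a block. P-values were Bonferroni adjusted over 24613 probes. The model let no siRNA effect vary by replicate and took the days of 1 replicate as independent. The SEs and p-values over all days, and the counts of 24 pairs, therefore do not measure the spread of the siRNA effect between replicates. The replicate number was kept as a block because replicates were independent and arrays of 1 day and number deviated together from their group means. The correlations were 0.544 to 0.914 in 24 pairs over the 10567 probes above background on at least 3 arrays. Over all probes they were 0.0239 in the pair of day 0, replicate 1, and at least 0.533 in the others. They include the mean level of each replicate, so they do not show a pairing within days, for which the model held no term.

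Members and gene lists were chosen with earlier results of these data known. Array values were given for the 15 genes with the largest called log2 difference among 20 eligible, whose brightest probe was above background on 24 arrays or more. The exception among the 15 was COL17A1, given by detection and a bound only. COL5A1, COL6A1, COL6A2, COL6A3, COL7A1, COL15A1, LAMB3, LAMA2 and the partner genes were added after their values were seen. For bounds, the dim group was set on each array to the higher of the dim probe's signal and the lowest signal of any probe above background. On simulated data with 200 probes changed by 1 on the log2 scale among 24613, the fit recovered 200 over all days, 189 on day 6, 197 for late minus early and 200 for the control course, with at most 1 unchanged probe called. The simulated noise was independent between arrays beyond the replicate's mean level, which was not tested for the real arrays. These counts therefore check the fit and not the p-values of the real data. Sequences were RefSeq's (GRCm38.p6). Figures were drawn with matplotlib 3.10.9. The values of 1 member gene are not reported here.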

Additional observations from a re-analysis of the deposited data

Results flagged for a closer look

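The siRNA effect differed between days for 8 members by a test of the difference itself with limma, with adjusted p-values over all 24613 probes. The effect of days 4 to 6 minus that of days 0 to 2 was −0.69 for COL7A1 (SE 0.09, adjusted p = 0.000252), −1.03 for LAMB3 (SE 0.12, adjusted p = 1.16e-05), −0.68 for COL28A1 (SE 0.08, adjusted p = 1.33e-05) and 0.92 for COL23A1 (SE 0.13, adjusted p = 0.000751). The effect of day 2 minus that of days 4 to 6, a contrast chosen after seeing the data, was 0.77 for COL18A1 (SE 0.12, adjusted p = 0.0102), 0.57 for COL4A5 (SE 0.10, adjusted p = 0.0304) and 0.75 for COL16A1 (SE 0.10, adjusted p = 5.48e-05). It was 1.03 for LAMB2 (SE 0.15, adjusted p = 0.000792), 0.99 for LAMB3 (SE 0.17, adjusted p = 0.0443) and 0.94 for COL28A1 (SE 0.12, adjusted p = 3.02e-05). Control COL28A1 was not above background on day 2, nor was LAMB3 on any PPARγ KD array after day −2, so their sizes depend on the background correction.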

How the results depend on the processing

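The 72 member values recomputed under 9 alternatives each had been chosen because they were called, so a reversal was unlikely from the start. None reversed, and 149 of the 648 values lost their call. Of these, 32 went in the fit with no replicate block and 41, 31 and 20 in the fits that left out replicate 1, 2 or 3. Among the 32 were the control falls of COL1A1 on day 0 and of COL1A2, COL3A1 (probe 6620044) and COL8A1 on day 2, with the same sizes. Without the replicate block the member counts fell over all days from 18 to 9 (7 lower, 2 higher), on day 2 from 9 to 4 higher, over the PPARγ KD course from 23 to 14, and for day 2 minus days 4 to 6 from 6 to 1. With Benjamini-Hochberg adjustment 10 members were higher over all days, 31 differed on some day instead of 18, 10 were lower on day 0, 16 differed between late and early days, and 11 between day 2 and days 4 to 6. Leaving out 1 replicate gave 6 to 11 members called over all days (5 to 8 lower, 1 to 3 higher), 8 to 15 on some day (1 to 4 lower on day 0, 2 to 6 higher on day 2), 19 to 23 over the control course, 12 to 18 over the PPARγ KD course, 1 to 4 for late minus early and 0 to 3 for day 2 minus days 4 to 6. Leaving out both arrays of day 0 replicate 1, chosen after seeing the data, left 3 lower on day 0. Quantile normalization, no background correction, an offset of 50 and a detection filter moved no count by over 1.5 times. The causes were not tested, beyond the fewer arrays left. Probes near background, such as COL15A1, LAMA2 and LAMB3, give bounds only.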
